A study of Homo sapiens with 4 samples.

Results

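The sites described here are accessible regions of the BCPAP genome that were found in every library but had lower read coverage after 5-azacytidine than without it. BCPAP is an established human thyroid cancer cell line. Chromatin accessibility had been profiled by ATAC-seq in 2 treated and 2 untreated libraries, and peaks had been listed separately for each on hg19. The treated cells had received 5-azacytidine, for which the labels give no dose or duration, and the untreated cells had received no drug. All libraries came from the same cell line. Whether the replicates were separate cultures is not stated, so what differs between them may be technical only. Merging the peaks of the 4 lists on chromosomes 1 to 22, with an overlap of at least 1 bp, gave 366095 regions, of which 103006 (28.1%) were present in all 4 lists. Of these, 49777 reached a summit coverage of 20 or more in at least 2 lists and are called covered shared sites below. Summit coverage is the read coverage at the highest point of a peak, derived from the fold enrichment in the authors' lists. It was divided in each library by that library's median over the 103006 shared regions, and the result is called scaled coverage. A site was a member where the lower scaled value of the untreated libraries was at least 1.5 times the higher scaled value of the treated libraries. This held for 2679 sites, 5.38% of the covered shared sites, together spanning 2519 kb.

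ATAC-seq uses a transposase that cuts and tags DNA not wrapped tightly in nucleosomes, so promoters, enhancers and insulators appear as peaks of coverage. The height of a peak rises with the share of cells and alleles in which the site is open, and also with the depth of the library and the share of its reads that fall in peaks. 5-Azacytidine is a cytidine analogue that is built into nucleic acids, traps DNA methyltransferases on DNA and lowers CpG methylation over cell divisions. Loss of methylation is usually linked to the opening of silenced promoters and repeats. The drug is also known to cause DNA damage and to slow cell division. The genes at these sites and their base sequence were not analysed here, since no annotation or genome of the hg19 build was used.

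The members were chosen by their coverage in these same 4 libraries, so the coverage values that follow describe the choice and carry no test. The members had a median summit coverage of 12 and 17 reads in treated replicates 1 and 2, against 49 and 38 reads in untreated replicates 1 and 2. The libraries differed in level as a whole: the median over all shared regions was 11 and 16 reads in the treated libraries and 23 and 18 reads in the untreated ones. After scaling, the members' medians were 1.09 and 1.06 in the treated libraries and 2.13 and 2.11 in the untreated libraries. A typical member thus stood near the middle of the shared regions in treated cells and about 2.1 times above it in untreated cells. The median log2 ratio of scaled coverage, treated over untreated, was −0.98 in the members, with quartiles of −1.14 and −0.85. Over all 49777 covered shared sites that median was −0.15, so these sites on the whole were slightly lower in treated cells after scaling. In rank among the covered shared sites, which does not depend on a scaling factor, the median member stood at percentile 18.6 and 13.2 in the treated libraries, against 59.1 and 59.6 in the untreated libraries.

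Libraries of the same group lay close together at the members. The scaled values of the 2 treated libraries differed by a median of 1.15 times, and those of the 2 untreated libraries by a median of 1.11 times. In sites outside both classes these spreads were 1.24 and 1.19 times, but a rule that compares the lower untreated with the higher treated value favours sites with a small spread. The closer limit was set by treated replicate 2 at 1470 members and by treated replicate 1 at 1178, with 31 ties. On the untreated side it was set by untreated replicate 1 at 1360 members and by untreated replicate 2 at 1311, with 8 ties. Without treated replicate 2 the rule gave 11339 sites (24.5% of the covered shared sites of that setting), without treated replicate 1 it gave 6756 (13.5%), without untreated replicate 1 4196 (11.1%) and without untreated replicate 2 3399 (8.34%). With a library less the rule has a condition less, which by itself lets more sites pass.

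The mirror class, with both treated values at least 1.5 times both untreated values, held 1023 sites (2.06% of the covered shared sites). It held 1915 (3.82%) without treated replicate 1 and 1100 of 46235 without treated replicate 2. Without untreated replicate 1 it held 1317 of 37740, and without untreated replicate 2 1435 of 40761. Leaving out a library removes a condition from both classes. Without treated replicate 2 the members rose far more than the mirror class, and the reason was not tested. With all 4 libraries, the median summit coverage of the mirror class was 24 and 33 reads in the treated libraries and 23 and 17 reads in the untreated libraries. The remaining 46075 covered shared sites fell in neither class. Without any fold, both untreated libraries lay above both treated libraries at 36.1% of the covered shared sites, and both treated libraries lay above both untreated ones at 15.9%. The background against which the members are counted was therefore itself tilted toward lower values in treated cells.

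**Figure D1:**
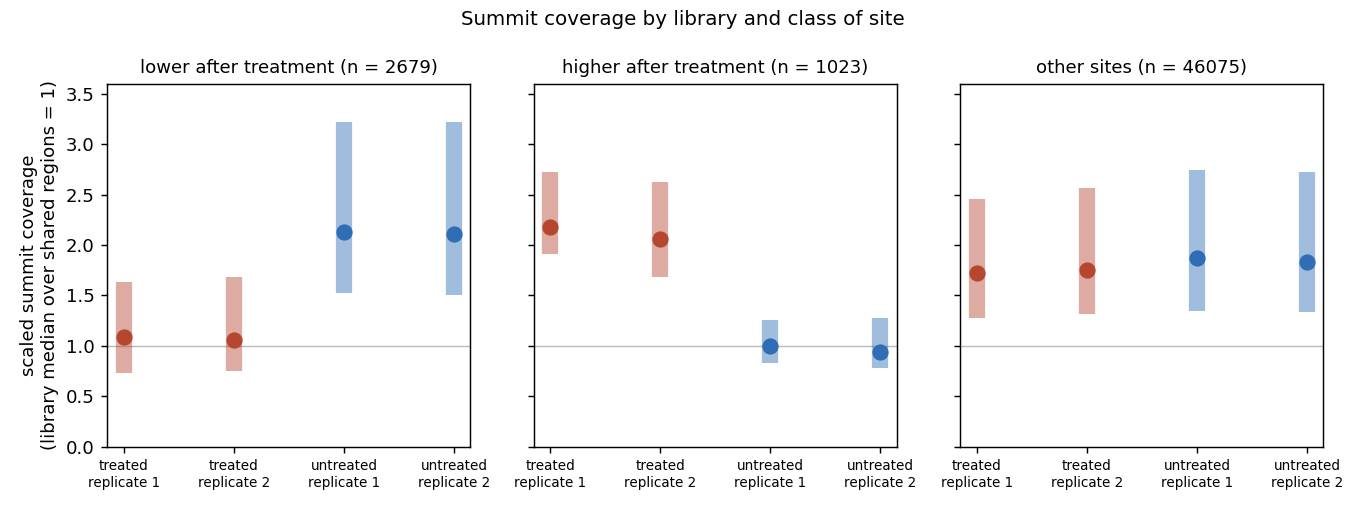
Scaled summit coverage (vertical axis, library median over the 103006 shared regions set to 1) in the 2 treated and 2 untreated libraries, for members, the mirror class and the other covered shared sites. Points are medians and bars run between quartiles over sites; the members sit at 1.09 and 1.06 in treated libraries and at 2.13 and 2.11 in untreated libraries.

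The threshold on coverage was not equal for the groups. A raw coverage of 20 corresponds to a scaled value of 1.82 and 1.25 in treated replicates 1 and 2, against 0.870 and 1.11 in untreated replicates 1 and 2. All 2679 members reached 20 reads in both untreated libraries. Only 551 (20.6%) reached it in both treated libraries, 599 (22.4%) in 1 of them and 1529 (57.1%) in neither. The last set passed the threshold solely through the group in which it is high, so its being lower after treatment was in part fixed by the choice. When 20 reads were required in all 4 lists, 21818 sites remained to be classed, and 551 of them (2.53%) were members, against 363 (1.66%) in the mirror class. The balance also turned with the threshold: at 10 reads in 2 lists 3144 of 85759 sites (3.67%) were lower and 4283 (4.99%) higher, while at 30 reads 1820 of 30674 (5.93%) were lower and 344 (1.12%) higher.

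The 551 members with 20 reads in all 4 lists were stronger sites, as their choice requires, and wider ones. Over all covered shared sites the median width also rose with mean scaled coverage, and its part in this difference was not tested. Their median coverage was 25 and 38 reads in the treated libraries and 100 and 78 reads in the untreated libraries. They spanned a median of 1172 bp, and 76.8% held several peaks in at least 1 list. The other 2128 members had medians of 10 and 15 reads in the treated libraries and 43 and 33 reads in the untreated libraries. These spanned a median of 624 bp, and 36.9% held several peaks. The ratio that chose the members, untreated over treated, had a median of 1.61 in the first set and 1.67 in the second.

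Ratios were densest near the threshold. Of the 2679, 904 had a ratio (lower untreated over higher treated scaled coverage) from 1.5 to 1.6, the median was 1.66, and 24 sites stood at exactly 1.5. Another 1327 covered shared sites had a ratio from 1.4 to just under 1.5 and were left out. A ratio of at least 2 was reached by 325 members, at least 2.5 by 55 and at least 3 by 10. Of the 5 sites taken just inside, that on chromosome 1 from 247802567 to 247803121 had 21 and 32 reads in treated cells and 69 and 54 reads in untreated cells. Just outside, at a ratio of 1.4993, the site on chromosome 1 from 36688607 to 36690523 had 47 and 83 reads in treated cells and 201 and 140 reads in untreated cells. A second site just outside, on chromosome 19 from 44100006 to 44100557, had 15 and 14 reads in treated cells and 47 and 45 reads in untreated cells. Sites on either side of the limit thus had nearly the same ratio, by which they were picked, while their read counts differed widely.

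The largest ratio, 4.17, belonged to a site of 1364 bp on chromosome 14 from 35016931 to 35018294. It had 7 and 10 reads at its summit in treated replicates 1 and 2, against 61 and 67 reads in untreated replicates 1 and 2. The highest summits of the 4 libraries lay within 16 bp of each other there, and the nearest other shared site, 6397 bp away, was also a member.

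The second largest ratio, 3.94, was found on chromosome 11 from 75508707 to 75509649, with 4 and 6 reads in treated cells and 34 and 31 reads in untreated cells. The highest summits were up to 443 bp apart in this region, so the treated and untreated values there may belong to different peaks. Chromosome 3, with 6.35% of members and 7.15% of the covered shared sites, held 4 of the 10 largest ratios. From 124100316 to 124100894 the treated libraries had 4 and 6 reads and the untreated libraries 44 and 25 reads. From 100669031 to 100669608 they had 6 and 8 reads, against 48 and 35 reads without the drug. The site from 72192347 to 72192887 was the highest of these, with 8 and 13 reads in treated cells and 62 and 52 reads in untreated cells. From 94012655 to 94013593 there were 5 and 8 reads in treated cells and 35 and 27 reads in untreated cells. These 4 sites were far apart, each more than 150 kb from the nearest other member.

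Further large ratios lay on other chromosomes. Chromosome 2 from 216549448 to 216550085 had 5 and 7 reads in treated cells and 34 and 30 reads in untreated cells. Chromosome 5 from 158282392 to 158283004 had 7 and 10 reads in treated cells, against 45 and 40 reads in untreated cells. On chromosome 12 from 122943704 to 122944264 there were 6 and 8 reads in treated cells and 38 and 41 reads in untreated cells. In all 3 the groups were far apart and the libraries of each group close, which follows from their choice by the ratio. Chromosome 16 from 2563361 to 2564692 had 4 reads in each treated library, the lowest coverage that the lists hold, and 30 and 20 reads in the untreated libraries. It was the one member at that floor in both treated libraries, and its ratio of 3.06 is set by the floor. In all, 50 members stood at 4 reads in treated replicate 1 and 5 members in treated replicate 2.

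The strongest members were tall peaks in all 4 libraries, with ratios under 2. The tallest by its lower untreated value lay on chromosome 1 from 10269687 to 10270763. It had 58 and 82 reads in treated cells and 216 and 181 reads in untreated cells, which are scaled values of 5.27 and 5.12 against 9.39 and 10.1. On chromosome 18 from 9474667 to 9476382 the treated libraries had 71 and 102 reads and the untreated libraries 224 and 180 reads, with a ratio of 1.51, just past the limit. On chromosome 1 from 36614603 to 36615498 there were 61 and 93 reads in treated cells, against 251 and 175 reads in untreated cells. In the treated libraries all 10 of the tallest members still stood at more than 4 times the library median.

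Of the 10 tallest, 6 were on chromosome 1, which held 10.2% of members and 11.1% of the covered shared sites. The site from 12079050 to 12081353 had 49 and 80 reads in treated cells and 209 and 162 reads in untreated cells, the largest ratio of the 10 at 1.80. The narrowest of them, from 36235350 to 36235858, was a single peak in every list, with 54 and 82 reads in treated cells and 181 and 161 reads in untreated cells. The widest, on chromosome 15 from 75743869 to 75747396, held 5 and 6 peaks in the treated lists and 8 and 7 in the untreated lists. Its tallest summit had 53 and 84 reads in treated cells and 206 and 158 reads in untreated cells. The ratios of the 10 tallest ran from 1.51 to 1.80. None of these sites was among the 10 chosen for their ratio, so a ratio not above 3, the smallest of those, was given.

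**Figure D2:**
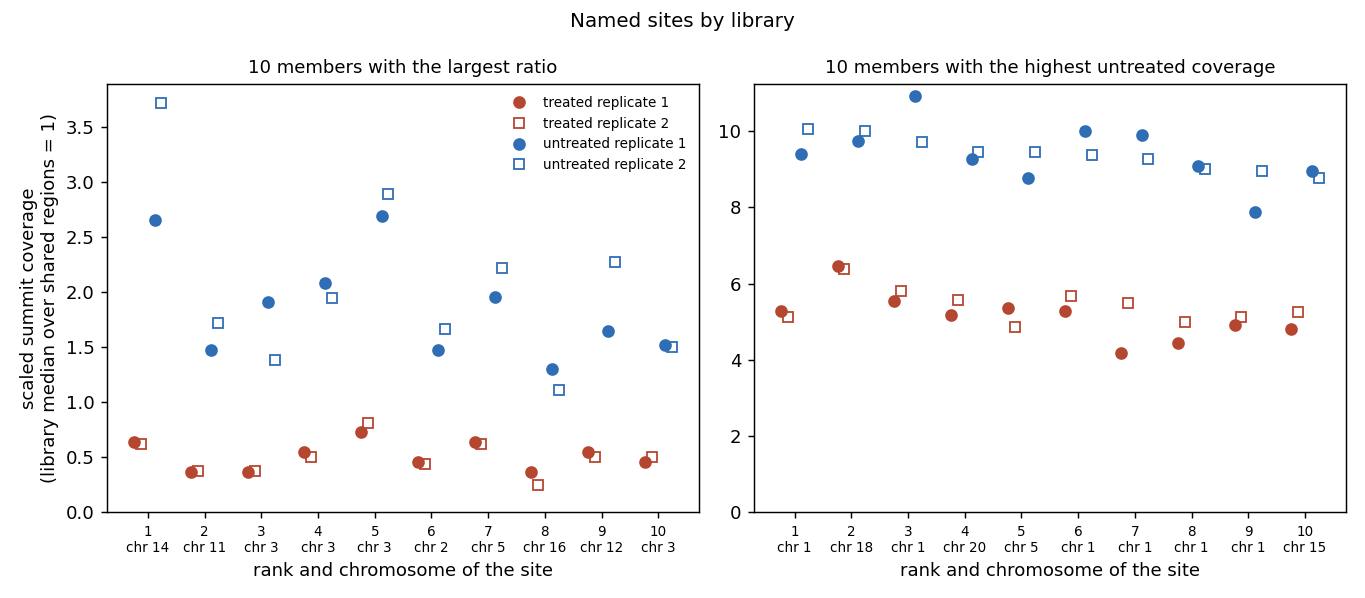
Scaled summit coverage (vertical axis, library median set to 1) of the 10 members with the largest ratio and the 10 with the highest lower untreated raw coverage, each site a column named by rank and chromosome, with red points for treated and blue for untreated libraries. The sites were chosen by these values: on the left the treated points lie between 0.250 and 0.813, and on the right between 4.18 and 6.45.

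Members occurred at every strength but were most frequent among the weakest covered sites. The covered shared sites were divided into deciles of mean scaled coverage over the 4 libraries. In the weakest decile 640 of 4978 sites (12.9%) were members, and in the other 9 deciles between 3.88% and 5.30%. In the weakest decile 67.4% of all sites had 20 reads in both untreated libraries and in neither treated one, against 48.96% in the second decile and 0% in the strongest. The high share of members in the weakest decile thus follows in part from the threshold on coverage, and how large that part is was not tested. The mirror class had a share of 1.21% in the weakest decile, 3.42% in the second and 0.402% in the strongest. The threshold bears on it unequally, as 20 reads is a scaled 1.82 and 1.25 in the treated libraries. Both values exceed 1.12, the highest mean scaled coverage in the weakest decile. This limits which mirror sites can fall there, so their share is no control for that of the members. The median log2 ratio of all covered shared sites moved with strength as well, being −0.33 in the weakest decile, −0.04 in the third and −0.20 in the strongest, so the tallest peaks were lower in treated cells on the whole.

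That tilt depended on how the libraries were brought to one scale. Quantile normalisation, chosen after the data were seen, gives every library the same distribution of values. With it 2379 sites (4.78%) were lower and 1362 (2.74%) higher, and 2082 of the 2379 were members by the main rule. In the strongest decile the shares were then 1.49% lower and 1.41% higher, against 4.40% and 0.402% with scaling by the median. In the weakest decile they were 17.4% and 1.19%. The excess of members over the mirror class among tall peaks was thus seen with one scaling and not with the other. Without any scaling 12697 sites (25.5%) passed the rule and 141 (0.283%) its mirror, as the median log2 ratio of all shared regions was then −0.55, against 0.06 after scaling by the median.

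**Figure D3:**
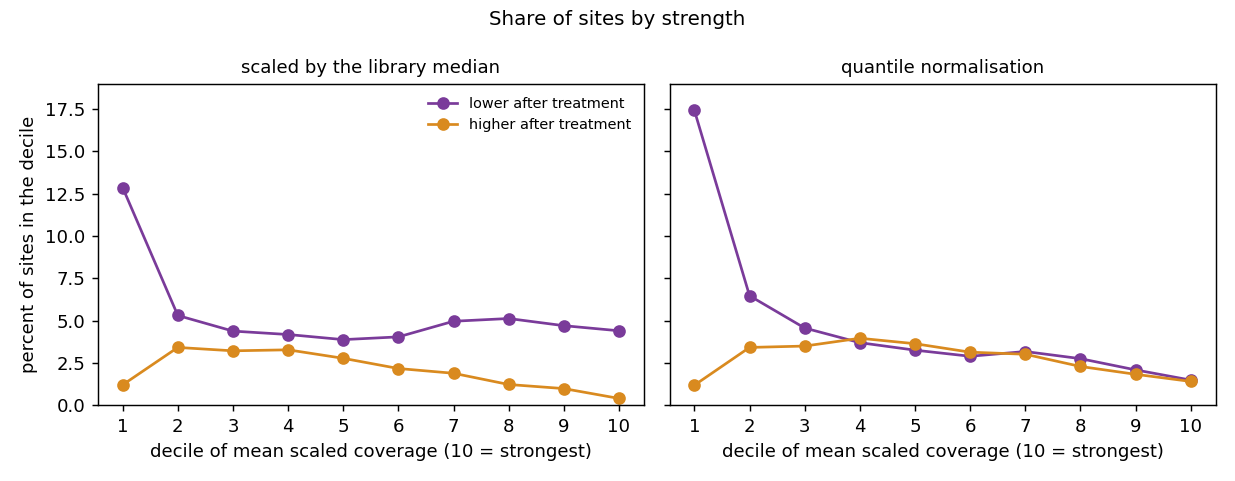
Percent of covered shared sites (vertical axis) that were lower or higher after treatment, by decile of mean scaled coverage (horizontal axis, 10 the strongest), with scaling by the library median on the left and quantile normalisation on the right. On the left the share of lower sites stays between 3.88% and 5.30% after the first decile, and on the right it declines to 1.49% in the strongest.

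Members had the shape of ordinary accessible sites. Their median width after merging was 714 bp, against 632 bp in the mirror class and 661 bp in the other covered shared sites. Almost all intervals of the lists are 500 bp wide, so width depends on how many peaks were joined and on how far apart they lay. Several peaks in at least 1 list were found at 1209 members (45.1%, 95% Wilson interval 43.3 to 47.0), 41.7% (38.8 to 44.8) of the mirror class and 45.3% (44.8 to 45.7) of the other sites. The intervals here and below cover counting error only, and sites are not replicates. Widths over 2000 bp occurred at 155 members (5.79%), 7.04% of the mirror class and 4.22% of the other sites, and no member exceeded 5000 bp.

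The number of listed peaks per site was not part of the rule. It averaged 1.39 and 1.48 in treated replicates 1 and 2, against 1.48 and 1.53 in untreated replicates 1 and 2. The group means were 1.43 ± 0.0644 in treated and 1.501 ± 0.0364 in untreated libraries (SD, n = 2 each), and the groups overlapped narrowly, since treated replicate 2 lay just above untreated replicate 1. The exact two-sided permutation test over 6 assignments gave p = 0.667, where the smallest value that the design allows is 0.3333. In the mirror class the treated libraries averaged 1.51 and 1.56 peaks and the untreated libraries 1.37 and 1.42, with p = 0.3333 in the same exact test. In the other sites the averages were 1.39 and 1.46 in treated and 1.39 and 1.44 in untreated libraries (exact p = 1). As whole lists, the treated libraries held more peaks (260069 and 245445) than the untreated ones (221342 and 223650), at a lower median coverage. At a single site the number of peaks may still move with the coverage that the rule used, which was not tested. This measure is therefore not taken as free of the rule.

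Members with 1 peak in every list numbered 1470 and had median coverages of 9 and 14 reads in treated cells and 41 and 31 reads in untreated cells. The 1209 members with several peaks had 16 and 24 reads in treated cells and 65 and 51 reads in untreated cells. Scaled, the first set stood at 0.818 and 0.875 in treated and 1.78 and 1.72 in untreated libraries, and the second at 1.45 and 1.5 in treated and 2.83 in each untreated library. The ratio that chose the members had medians of 1.67 and 1.65 in the 2 sets, so both kinds of site entered the class with similar ratios.

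Where a member held at least 2 peaks in every list, its second highest summit could be read as well. This held for 467 members. The second summit had a median of 12 and 18 reads in the treated libraries and 36 and 32 reads in the untreated libraries, or scaled values of 1.09 and 1.12 against 1.57 and 1.78. Its median log2 ratio, treated over untreated, was −0.51 with quartiles of −0.83 and −0.19, and both untreated libraries lay above both treated ones at 261 of the 467 sites (55.9%). In 7070 other sites of this kind the median was −0.06, and 25.4% had both untreated libraries above. In 139 sites of the mirror class the median was 1.03, near the 1.08 of the summits that chose that class. The second summit was not held to a ratio, so a value nearer 0 than the −0.98 of the members' highest summits follows in part from the choice. Both summits were read from the same libraries, and no difference between the classes was tested.

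At members the place of the highest summit differed more between the treated libraries than between the untreated ones. Where every list had 1 peak, the summits of the 2 treated libraries lay a median of 36 bp apart and those of the 2 untreated libraries 16 bp. These distances were 18 bp (treated) and 19 bp (untreated) in the mirror class and 21 bp (treated) and 16 bp (untreated) in the other covered shared sites with 1 peak. Coverage moved with this measure, being lower in treated libraries at the members, and its part in the distance was not tested. In 1945 members (72.6%) the highest summits of all 4 lists lay within 150 bp, against 76.3% in the mirror class and 80.6% in the other sites. In the remaining 734 members the values of the libraries may come from different peaks of the same region.

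Chromosomes differed in the share of their covered shared sites that were members. The 5 highest shares were on chromosomes 19, 22, 17, 16 and 9. On chromosome 19, 191 of 1922 sites (9.94%, 8.68 to 11.4) were members, on chromosome 22, 57 of 685 (8.32%, 6.48 to 10.6), and on chromosome 17, 181 of 2336 (7.75%, 6.73 to 8.90). Chromosome 16 followed with 7.29% (6.01 to 8.81) and chromosome 9 with 6.52% (5.51 to 7.70). Chromosome 6 had the lowest share, 3.85% (3.21 to 4.61). Chromosomes 11 and 4 came next, with 4.25% (3.63 to 4.98) and 4.26% (3.49 to 5.18), then chromosome 5 with 4.35% (3.79 to 5.00) and chromosome 21 with 4.73% (3.22 to 6.88). The intervals of chromosomes 19 and 17 lie above those of the first 4 of these, while that of chromosome 21 overlaps the interval of chromosome 17.

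The mirror class did not follow the same order. Chromosome 19 had 37 sites in it (1.93%), close to the share over all chromosomes. Chromosomes 5, 11 and 20 had the highest shares, at 3.46%, 3.29% and 3.05%, and the first 2 of these were among the lowest in members. Members per site of the mirror class ranged from 1.26 on chromosome 5 and 1.29 on chromosome 11 to 7.12 on chromosome 22 and 7.54 on chromosome 17.

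The sites in neither class shifted with the members. Their median log2 ratio, treated over untreated, was −0.27 on chromosome 19, −0.21 on chromosomes 17 and 22 and −0.20 on chromosome 16, against −0.06 on chromosome 5 and −0.08 on chromosome 11. Both untreated libraries lay above both treated ones at 50% of the covered shared sites on chromosome 19, against 30.1% on chromosome 5. On chromosome 19 the sites in neither class were thus low together with the members. The DNA copy number and the base composition of these chromosomes were not analysed here.

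**Figure D4:**
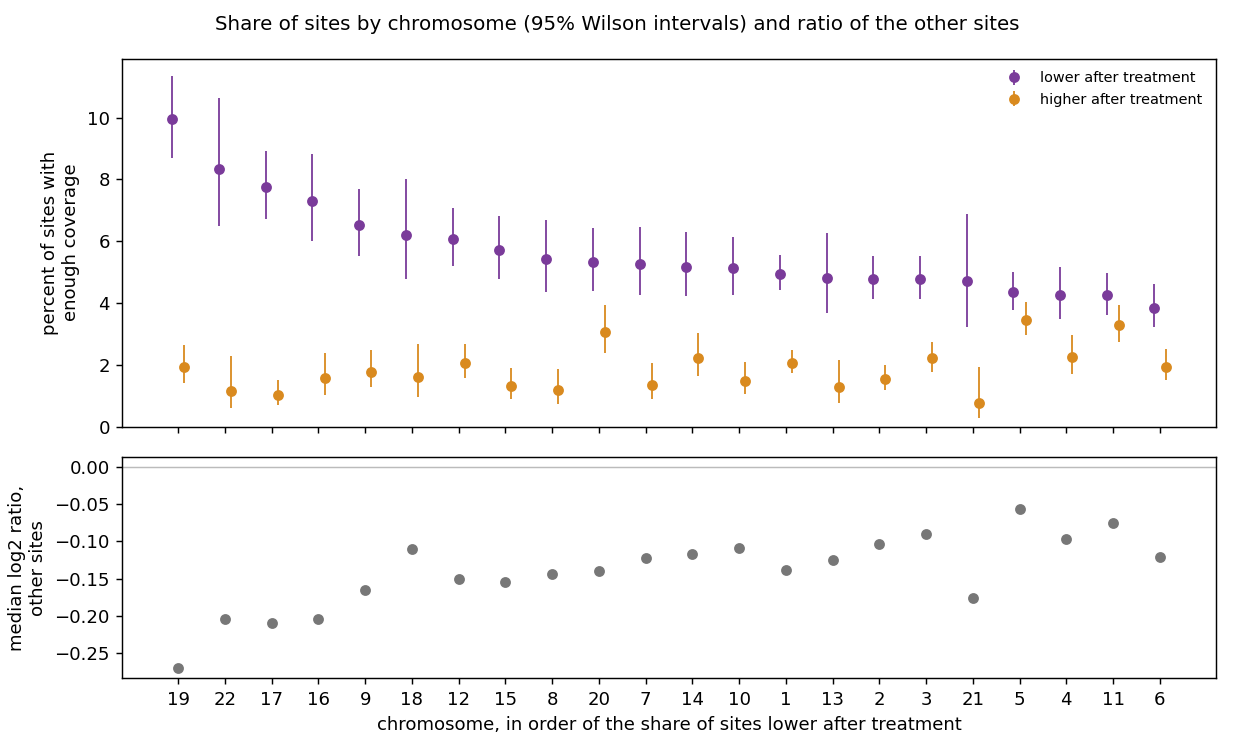
Upper panel: percent of covered shared sites on each autosome that were lower or higher after treatment, with 95% Wilson intervals for counting error. Lower panel: median log2 ratio of scaled coverage, treated over untreated, of the sites in neither class, which is lowest, at −0.27, on chromosome 19, where the share of lower sites is highest, at 9.94%.

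The high share on chromosome 19 was present in each kind of site examined. Among sites with 1 peak in every list 9.73% (7.95 to 11.9) were members there, against 5.24% (4.98 to 5.52) on the other chromosomes. Among sites with several peaks the shares were 10.1% (8.43 to 12.1) and 5.14% (4.86 to 5.45). In the weaker 5 deciles of coverage they were 9.25% (7.53 to 11.3) and 6.001% (5.71 to 6.31), and in the stronger 5 deciles 10.6% (8.81 to 12.6) and 4.39% (4.14 to 4.66). With 20 reads required in all 4 lists the share on chromosome 19 was 6.04% and still the highest of the 22 chromosomes. It was also highest at a ratio of 2 (1.46%) and without each library in turn. With quantile normalisation it was 8.53%, second to chromosome 22.

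Along chromosome 19 the members were spread over both arms. Between 10 and 20 Mb 57 of 438 covered shared sites (13.01%, 10.2 to 16.5) were members, and between 40 and 50 Mb 55 of 475 (11.6%, 9.005 to 14.8). The first 10 Mb held 33 of 404 (8.17%), the part from 30 to 40 Mb 18 of 243 (7.41%), and the part from 50 Mb 28 of 297 (9.43%). Between 20 and 30 Mb, which holds the centromere, there were 0 of 65, which allows a share of up to 4.62% when 3 sites are taken as the limit of a count of 0 (Wilson upper bound 5.58%).

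In windows of 1 Mb, members were found in 1306 of the 2568 windows that held a covered shared site, and in 635 of these windows there was 1 member. Windows with at least 5 members numbered 89 and held 546 members (20.4%), and 17 of those windows were on chromosome 19. The window with most members was chromosome 19 from 49 to 50 Mb, with 17 members and 2 sites of the mirror class among 80 sites. Leaving that window out, 9.45% of the sites on chromosome 19 were members. Next came chromosome 19 from 10 to 11 Mb (10 of 44) and from 11 to 12 Mb (10 of 58), chromosome 15 from 74 to 75 Mb (10 of 74) and chromosome 17 from 48 to 49 Mb (9 of 65). The sites of these windows in neither class (33 to 64 per window) had median log2 ratios, treated over untreated, from −0.53 to −0.27, against −0.13 over all such sites. The windows were picked by their counts, which were not tested.

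The 17 members between 49 and 50 Mb of chromosome 19 ranged widely in height. The tallest, from 49999085 to 49999731, had 36 and 49 reads in treated cells and 130 and 92 reads in untreated cells. The largest ratio of the window, 2.32, was at 49495985 to 49497378, with 20 and 27 reads in treated cells and 108 and 76 reads in untreated cells. Close by, from 49501067 to 49501678, there were 6 and 8 reads in treated cells and 42 and 21 reads in untreated cells. The site from 49223820 to 49224380 had 18 and 26 reads in treated cells, against 77 reads in each untreated library. In each of these the treated libraries lay below the untreated ones in raw reads, which the rule and the lower level of the treated libraries make certain.

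Within that window 5 members followed each other between 49616834 and 49661308, a stretch of 44.5 kb with 7 covered shared sites. The first, ending at 49618272, had 18 and 26 reads in treated cells and 79 and 61 reads in untreated cells. The third, from 49631023 to 49631568, had 14 and 17 reads in treated cells, against 80 and 40 reads in untreated cells, so the untreated libraries differed 2-fold there before scaling. The last, from 49660718, had 11 and 25 reads in treated cells and 60 and 50 reads in untreated cells. The median log2 ratio over all 7 sites, members included, was −1.07.

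Joining members whose centres lay within 50 kb of each other gave 2317 groups, of which 2028 were single members, 235 were pairs and 54 held at least 3. The largest group held 7 members and lay on chromosome 11 between 62341363 and 62522040, with 17 covered shared sites over 181 kb. Its tallest member, from 62521123 to 62522040, had 51 and 69 reads in treated cells and 187 and 131 reads in untreated cells. A second tall one, from 62388665 to 62389848, had 39 and 64 reads in treated cells and 166 and 132 reads in untreated cells. The weakest, from 62433007 to 62434766, had 6 and 11 reads in treated cells and 26 and 20 reads in untreated cells. No site of the mirror class lay in this stretch, but at the share of 3.29% on chromosome 11 a stretch of 17 sites is too short to show a lack of them.

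On chromosome 17 a group of 6 members lay between 8041197 and 8114235, with 15 covered shared sites over 73.0 kb and a median log2 ratio of −0.77, members included. The member from 8091582 to 8093882 had 33 and 40 reads in treated cells and 125 and 95 reads in untreated cells. That from 8041197 to 8042653 had 32 and 42 reads in treated cells, against 114 and 87 reads in untreated cells. The smallest ratio of the group, 1.503, was at 8057330 to 8057952, with 14 and 19 reads in treated cells and 44 and 41 reads in untreated cells. On chromosome 19, 5 members lay between 11450155 and 11495293. The widest of them, from 11455679 to 11457785, had 13 and 21 reads in treated cells and 70 and 55 reads in untreated cells, with a ratio of 2.32.

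Members lay closer to each other than the other sites lay to them. Another member was found within 50 kb of 651 members (24.3%, 22.7 to 26.0), 14.3% (12.3 to 16.5) of the mirror class and 18.9% (18.5 to 19.2) of the other covered shared sites. A site of the mirror class lay within 50 kb of 5.41% (4.62 to 6.33) of members, 19.6% (17.3 to 22.2) of that class itself and 7.35% (7.11 to 7.59) of the other sites. Regions with a peak in both untreated lists and in neither treated list numbered 12191. One of these lost regions lay within 50 kb of 53.5% (51.6 to 55.3) of members, 39.6% (36.6 to 42.6) of the mirror class and 49.5% (49.05 to 49.96) of the other sites. For the 15485 gained regions, with peaks in both treated lists alone, the shares were 55.0%, 65.5% and 55.8%. Members and lost regions were thus near each other slightly more often than other sites were near lost regions, and the gap to the mirror class was larger. These shares follow the density of sites and the shifts of whole chromosomes, whose part in them was not tested.

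Local density itself differed little. The nearest other shared site lay a median of 3.78 kb from a member (quartiles 1.57 and 9.87), against 2.98 kb from a site of the mirror class and 3.25 kb from another covered shared site. Isolation by more than 100 kb from any other shared site was found at 9 members (0.336%), 0.782% of the mirror class and 0.586% of the other sites. Within 5 Mb of the outermost listed peak of a chromosome lay 10.8% (9.63 to 11.98) of members, 17.1% (14.9 to 19.5) of the mirror class and 10.1% (9.80 to 10.3) of the other sites. The members therefore showed no excess near chromosome ends beyond the counting error of these shares, while the share of the mirror class was higher there.

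Sites next to members were lowered far less than the members. Around each member, the shared sites that belonged to neither class were taken by their distance from its centre. Within 1 kb there were 237 of them, with a median log2 ratio, treated over untreated, of −0.16 (95% interval of the median −0.26 to −0.09). At 1 to 2 kb the median was −0.08 (711 sites), at 2 to 5 kb −0.04 (1407 sites) and at 5 to 10 kb 0.01 (2171 sites). Over all 99304 shared sites in neither class it was 0.07, and around the other covered shared sites it lay between 0.03 and 0.07 at every distance. Around the mirror class the neighbours were high over a longer range: their median was 0.38 within 1 kb, 0.41 at 2 to 5 kb and 0.19 at 10 to 50 kb. The neighbours of members thus lay below those of other sites, by less with distance and by far less than the −0.98 of the members themselves. Whether these medians differ was not tested. Neighbours were read from the same libraries that chose the members, so these values are a description. Sites that pass the rule had been left out of the neighbours, which lowers the size of their medians.

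**Figure D5:**
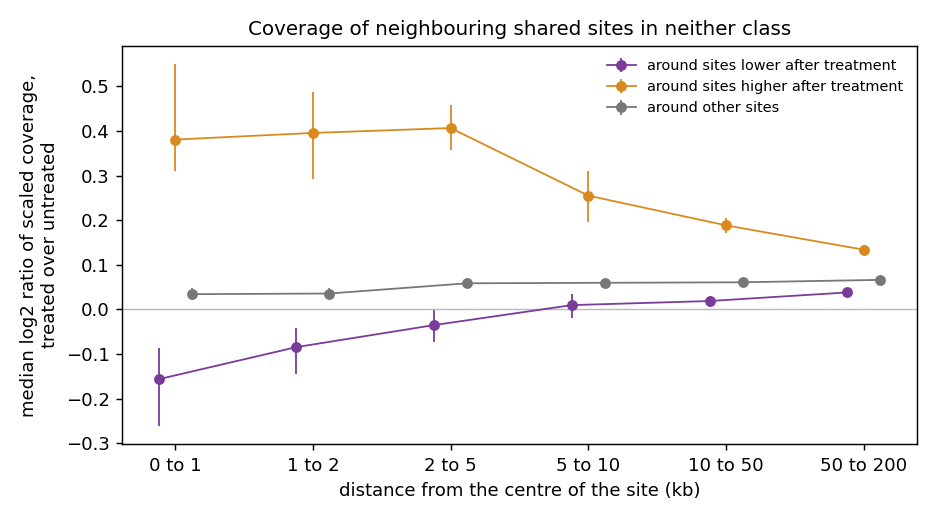
Median log2 ratio of scaled coverage, treated over untreated (vertical axis), of shared sites in neither class, by distance in kb from the centre of members, mirror sites and other covered shared sites, with 95% order-statistic intervals. Around members it runs from −0.16 within 1 kb to 0.04 at 50 to 200 kb, and around the mirror class from 0.38 to 0.13.

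The 325 members with a ratio of at least 2 were narrower and weaker in treated cells than the rest. Lower treated coverage is in part fixed by choosing them on this ratio. Width also rose with strength over all covered shared sites, from a median of 579 bp in the weakest decile to 1019 bp in the strongest. The part of strength in the narrower width was not tested. Their median coverage was 8 and 11 reads in the treated libraries and 45 and 33 reads in the untreated libraries, against 12 and 18 reads in treated and 50 and 39 reads in untreated libraries for the 2354 members below that ratio. Their median width was 619 bp, against 741 bp, and 31.1% held several peaks in a list, against 47.1%. The 325 sites were 0.653% of the covered shared sites, and 262 sites (0.526%) passed the same ratio in the other direction. At that ratio the 2 directions were therefore nearly balanced, unlike at 1.5. Chromosome 19 held 28 of the 325 (8.62%), against 7.13% of all members and 3.86% of the covered shared sites.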

How the data were processed

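ATAC-seq peak lists of 4 BCPAP libraries were used. Trimmomatic, Bowtie2, Picard, MACS2 and hg19 are named in the submitters' processing notes; versions, settings and any shift of read ends were not given in the sources used here. Calling was done per library, per the peak names in the files, and almost all deposited intervals are 500 bp wide. The deposited score sums to 1000000 in each list, a scaling made by the authors. The deposited fold and −log10 p and q values are the peak caller's. In at least 99.99% of peaks the fold was a whole multiple of 1 step per list (tolerance 0.001 of a step). Summit coverage was computed as 5 times the fold over the list's lowest fold, rounded, minus 1. The formula assumes that the lowest fold of a list stands for a coverage of 4, so the lowest value is 4 in every list by construction. Summit coverage was set side by side between lists after scaling. Background coverage was 0.875 to 0.913. The number of reads is unknown, so depth is known as coverage alone.

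Members and all lists were chosen with earlier results of these data known. Named sites are the 10 largest ratios, the 10 highest lower untreated coverages, 5 sites on either side of the limit (of which 3 are printed), the 5 highest and 5 lowest chromosomes and the 5 windows with most members. Sites of the top window and of the 4 largest groups were added after their values were seen. Shares carry 95% Wilson intervals, and medians order-statistic intervals. The merging and the rule were tested on simulated lists. Base composition, motifs, gene location and gene lists were not run, as no hg19 genome or annotation was used. Computations used Python 3.11.15 with pandas 2.3.3, numpy 2.4.6, scipy 1.17.1 and, for plots, matplotlib 3.10.9.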

Additional observations from a re-analysis of the deposited data

How the results depend on the processing

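The number of members depended on scale and threshold. Against 2679 members and 1023 sites of the mirror class, a fold of 2 gave 325 and 262, and no scaling 12697 and 141. The authors' score in place of scaled coverage gave 5687 members, scaling by the median of the covered sites 1776, and a −log10 q of at least 5 gave 1640. A coverage of 20 in all 4 lists, chosen after seeing the data, gave 551 and 363. The mirror class held 344 sites at 30 reads and 4283 at 10 reads. Without 1 library the members numbered 3399 to 11339 (11339 without treated replicate 2, 6756 without treated replicate 1, 4196 without untreated replicate 1). The mirror class then numbered 1100 to 1915 (1100 without treated replicate 2, 1915 without treated replicate 1). With fewer libraries the rule has fewer conditions in both directions. With the replicate block, the fold being asked only between libraries of the same number, there were 3861 members and 1493 mirror sites; the labels do not say that numbers mark a shared batch. All 2679 members passed with the block and without scaling, but both outcomes were fixed in advance. The block asks for only part of the conditions of the rule. Each treated library had a lower median over the shared regions than each untreated one, so unscaled ratios exceed the scaled ones. All members also passed with the authors' score, under which their median log2 ratio was −1.35, against −0.98 with scaled coverage. The score belongs to the same peaks, so this is no independent support. With the upper quartile 2156 passed, and with the median of the covered sites 1776.

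The share of members with several peaks, 45.1%, was 31.1% at a fold of 2, 55.8% at 30 reads and 39.0% to 60.2% without 1 library. The share on chromosome 19, 9.94%, was 1.46% at a fold of 2, 11.8% at 30 reads, 8.32% with the upper quartile, 8.53% with quantile normalisation, 6.04% with 20 reads in all lists and 14.6% to 34.5% without 1 library. The distance to the nearest shared site, 3.78 kb, was 4.69 kb at a fold of 2, 3.45 kb at 30 reads, 2.23 to 3 kb without 1 library and 7.61 kb to the nearest covered site. Another member within 50 kb was found for 6.77% at a fold of 2, 20.7% at 30 reads, 21.2% with the upper quartile and 29.7% to 58.0% without 1 library, against 24.3%; within 10 kb it was 6.98% and within 500 kb 77.7%. Neighbours within 1 kb, at −0.16, stood at −0.46 at a fold of 2 and −0.30 to −0.061 without 1 library. The difference in peaks per site, −0.069 treated minus untreated, kept its sign in all 7 settings run, with −0.022 without treated replicate 1, −0.027 without untreated replicate 2 and −0.105 without untreated replicate 1. The cause of these moves was not tested, beyond the fewer sites or conditions that each setting leaves by construction.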

Other observations

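Chromosome X was not part of the choice of members. With the same rule and the scaling from chromosomes 1 to 22, 1109 of its 2408 shared regions had enough coverage. Of these, 45 (4.06%, 95% Wilson interval 3.05 to 5.39) were lower after treatment and 20 (1.80%, 1.17 to 2.77) were higher. The share of lower sites was among the low ones of the chromosomes, but its interval reaches the 5.38% over chromosomes 1 to 22.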
